A study of Mus musculus with 16 samples.

Results

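R-loops inside the exons of protein-coding genes were examined in NIH/3T3 cells (fibroblasts grown from mouse embryos) with and without the nuclear export receptor exportin 4 (XPO4). An exon peak was a peak whose summit lay in an annotated exon of a protein-coding gene and more than 1000 bp from both ends of every protein-coding gene. Of 76752 peaks on chromosomes 1 to 19 and X, 2689 were exon peaks. Merged over the lists, they gave 1676 exon regions of 50279 regions in all, with a median width of 315 bp, in 1418 genes. "Internal" thus refers to the distance from gene ends and not to the rank of the exon: between 40.3% and 52.3% of the exon peaks of the KO lists lay in an exon that is internal in a coding or other transcript.

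The knockout (KO) line was made with CRISPR-Cas9, and the study's methods state that both copies of Xpo4 carry the same edit. The wild-type (WT) cells were unedited NIH/3T3 cells. Genomic DNA was cut with MseI, DdeI, AluI and MboI, treated with RNase R (RNase R+, which digests linear RNA and leaves ciR-loops, the R-loops made with circular RNA) or left without it (RNase R-, all R-loops), and precipitated with the antibody S9.6. Of the 16 samples, 8 are inputs and 8 are immunoprecipitates, and the peak lists of the 8 immunoprecipitates form 4 groups of 2 replicates. The labels give no separate cultures for the replicates, so the p-values measure only the spread between these samples, and all KO libraries come from 1 line. Peak lists hold no measure of Xpo4 itself, so the edit was not checked here.

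An R-loop forms when RNA pairs with 1 strand of the DNA and displaces the other. G-rich and purine-rich RNA gives stable hybrids, and R-loops are best known from promoters and transcription ends, where the non-template strand is often G-rich. Exonic circular RNAs are made by backsplicing of exons and hold exon sequence, so an exon is a place where such an RNA could pair with its own gene. Which RNA, circular or linear, lay in a given peak was not measured by this assay.

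The sequences under 3 exon regions are shown first, because they show the purine-rich kind of sequence counted below. Each run is 150 bases of the GRCm38 reference around the highest summit, on the strand of the gene, with runs of 4 or more purines in capitals. Hsp90ab1 is among the 10 regions of highest mean fold in the KO RNase R- lists. 4933416C03Rik is among the 5 of highest fold in the WT RNase R- lists, at 9.09, and was called in 1 list alone. Hsp90aa1 was called in 1 WT list, at 8.06, and in all 4 KO lists, in 2 of these 5 lists with the summit in the exon. Their windows lie in or beside coding sequence and touch no untranslated base, and they were not drawn to stand for all exon regions.
Hsp90ab1 (chr17:45570456-45570605, - strand): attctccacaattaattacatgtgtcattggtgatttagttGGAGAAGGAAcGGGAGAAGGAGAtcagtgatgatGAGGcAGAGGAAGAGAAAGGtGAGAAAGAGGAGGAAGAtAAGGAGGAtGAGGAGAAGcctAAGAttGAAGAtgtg
4933416C03Rik (chr10:116112727-116112876, - strand): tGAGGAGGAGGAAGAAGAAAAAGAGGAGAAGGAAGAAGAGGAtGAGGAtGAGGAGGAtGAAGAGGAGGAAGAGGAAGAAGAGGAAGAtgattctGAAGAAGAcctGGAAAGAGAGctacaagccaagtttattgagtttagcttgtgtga
Hsp90aa1 (chr12:110694214-110694363, - strand): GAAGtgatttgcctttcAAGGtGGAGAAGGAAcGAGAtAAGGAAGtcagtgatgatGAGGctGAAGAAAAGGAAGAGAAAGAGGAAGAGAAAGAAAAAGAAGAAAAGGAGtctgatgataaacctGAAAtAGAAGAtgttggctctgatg
In the Hsp90ab1 window 111 bases are coding, at the start of exon 6 of 11, and in the Hsp90aa1 window 130 bases, in exon 5 of 11. The 4933416C03Rik window is coding throughout, in a gene with 1 exon. Purine runs cover 84 of the 150 bases in Hsp90ab1, 91 in Hsp90aa1 and 101 in 4933416C03Rik. The GC skew on the sense strand is the excess of G over C divided by their sum. Over these 150 bases it was 0.66 in Hsp90ab1, 0.63 in Hsp90aa1 and 0.76 in 4933416C03Rik. Over the 300 bp used for the skews below it was 0.42, 0.57 and 0.42.

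The first question was how many exon peaks each genotype had. There were 988 and 1160 exon peaks in the KO RNase R- lists against 31 and 16 in the WT RNase R- lists, and 291 and 197 in the KO RNase R+ lists against 3 and 3 in the WT RNase R+ lists. The lowest KO list thus had more exon peaks than the highest WT list under both treatments. The means were 1074 ± 122 and 23.5 ± 10.6 (SD, n = 2) without RNase R, and 244 ± 66.5 and 3 ± 0 (SD, n = 2) with it. On the scale of log2(peaks + 0.5), KO exceeded WT by 5.55 without RNase R and by 6.10 with it. Each of these comparisons of 2 libraries with 2 gave an exact permutation p of 0.333, the smallest it allows. Over both treatments the difference was 5.83, with an exact permutation p of 0.0556 within treatments, again the smallest possible, and 0.139 after Benjamini-Hochberg adjustment over the 15 tests of this family. All tests are two-sided.

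Peaks of every kind were more numerous in KO, so the share of peaks in exons was compared next. By geometric means, the KO lists without RNase R had 48.1 times the exon peaks of the WT lists, 10.8 times the intron peaks and 10.2 times the peaks in all. With RNase R these ratios were 79.8, 21.1 and 20.5. The exon share of peaks was 3.78% and 3.63% in the KO RNase R- lists, with 95% Wilson intervals of 3.56 to 4.02 and 3.43 to 3.85. It was 0.811% (0.572 to 1.15) and 0.756% (0.466 to 1.22) in the WT RNase R- lists. With RNase R it was 4.64% (4.15 to 5.19) and 3.34% (2.91 to 3.83) in KO, and 1.15% (0.393 to 3.34) and 0.882% (0.301 to 2.56) in WT. These intervals cover counting error only. The exons searched make up 69.1 Mb, 2.70% of the assembled genome, so that every KO list lay above this share and every WT list below it. In the WT RNase R+ lists, with 3 exon peaks each, the interval of replicate 1 includes the genome share and that of replicate 2 ends just under it.

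Over both treatments the exon share was 2.95 percentage points higher in KO, with an exact permutation p of 0.0556 within treatments and 0.139 after adjustment. The difference was 2.93 points without RNase R and 2.97 points with it, each with an exact permutation p of 0.333. The 4 KO lists were cut to their peaks of highest −log10 p, as many as in the WT list of the same number, a comparison added after the data were seen. The exon share then was 5.44% and 7.79% in the KO RNase R- lists and 9.23% and 8.24% in the KO RNase R+ lists. Cutting the lists thus raised the share in every KO list, and the difference over both treatments was 6.77 points, with an exact permutation p of 0.0556. The WT lists kept all their peaks, so the strongest KO peaks were set beside whole WT lists, weak peaks included. The caller's background, the lowest expected level of a list, ranged from 0.843 to 0.924 fragments per position in the KO lists and from 0.425 to 0.558 in the WT lists. Its part in the numbers of exon peaks was not tested. By the study's own read totals, the uniquely mapped reads of both WT RNase R- libraries were far fewer than those of every KO immunoprecipitate. WT RNase R+ replicate 1 had somewhat fewer than every KO immunoprecipitate, and WT RNase R+ replicate 2 had more.

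**Figure D1:**
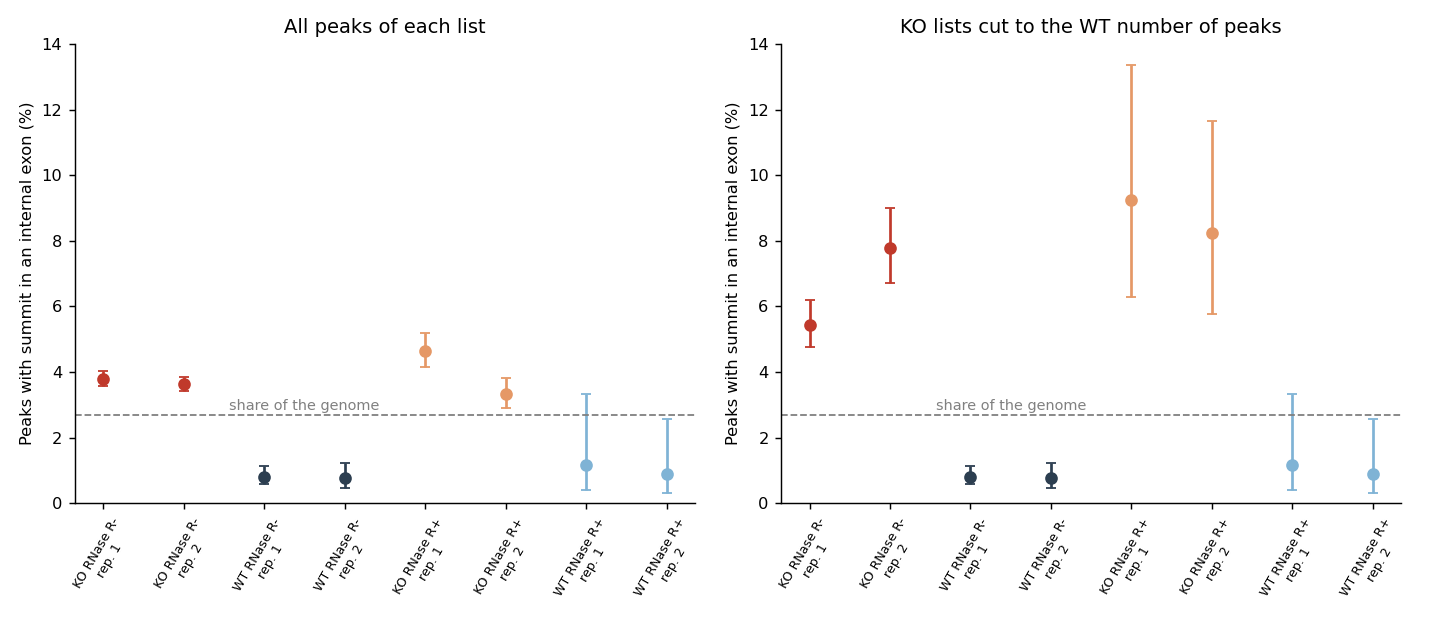
Share of peaks whose summit lies in an internal exon (percent, y axis) in each of the 8 libraries (x axis), with 95% Wilson intervals that cover counting error. On the left all peaks of each list are used, and the KO libraries lie between 3.34% and 4.64%, above the dashed line at the exons' share of the genome (2.70%), and the WT libraries between 0.756% and 1.15%, below it. On the right each KO list is cut to its peaks of highest −log10 p, as many as in the whole WT list of the same number. The KO libraries then lie between 5.44% and 9.23%.

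The density of peaks over exons and introns gave the same order without a comparison to the whole list. Exons held 14.3 and 16.8 peaks per Mb in the KO RNase R- lists, against 10.3 and 12.6 per Mb of intron. In the WT RNase R- lists exons held 0.448 and 0.231 peaks per Mb, against 1.43 and 0.781 per Mb of intron. For KO the exon to intron ratio of densities was 1.39 and 1.33 in RNase R- and 1.69 and 1.29 in RNase R+. For WT the same ratio reached 0.315 and 0.296, then 0.444 and 0.342 after RNase R. Exons were thus the denser class in all 4 KO lists and the sparser class in all 4 WT lists. On the log2 scale, with 0.5 added to each count of peaks, the ratio was 1.91 higher in KO over both treatments, a factor of 3.77, with an exact permutation p of 0.0556 within treatments and 0.139 after adjustment.

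**Figure D2:**
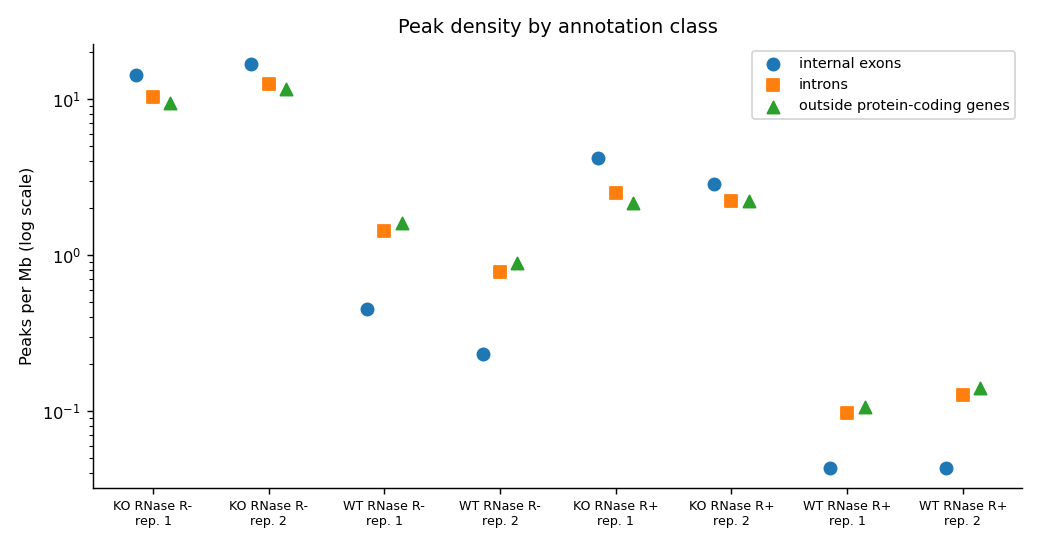
Peaks per Mb (y axis, log scale) in internal exons (circles), introns (squares) and outside protein-coding genes (triangles) for each library (x axis). Exons lie above introns in the 4 KO libraries, by factors of 1.29 to 1.69, and below them in the 4 WT libraries, where the factor is 0.296 to 0.444.

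Lists made with RNase R held fewer exon peaks in both genotypes, as they held fewer peaks of any kind. By geometric means there were 4.47 times fewer exon peaks with RNase R than without it in KO, and 4.74 times fewer peaks in all. In WT the factors were 7.42 and 9.57. The RNase R effect on log2(exon peaks + 0.5) was -2.43 over both genotypes, with an exact permutation p of 0.0556 within genotypes and 0.139 after adjustment. The effect in KO was 0.55 higher than that in WT. This value has no test, and it was 0.0788 without WT RNase R- replicate 1 and 1.01 without WT RNase R- replicate 2. The exon share differed by 0.257 percentage points between RNase R+ and RNase R-, less than the gap between the KO RNase R+ replicates, with an exact permutation p of 0.5, and it was -0.0686 points without KO RNase R+ replicate 1.

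Exon peaks of the KO lists were found again in the other replicate more often than peaks in general. Of the exon peaks, 65.5% and 56.9% overlapped a peak of the other KO RNase R- replicate, against 54.3% and 44.3% of all peaks of these lists. With RNase R it was 49.1% and 72.1% of the exon peaks, against 36.1% and 38.5% of all. Of the WT RNase R- exon peaks, 2 of 31 and 3 of 16 were found again (6.45% and 18.8%), against 16.2% and 29.3% of all peaks. These shares are descriptions without a test. Leaving out peaks whose expected level was over 3 times the lowest of their list, 0 of the 42 remaining WT RNase R- exon peaks were found again, and 57.7% of the KO RNase R- exon peaks.

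A region was counted as called in a list where any peak of that list overlapped it, so a list can call more regions than it has exon peaks. Counted in this way, 750 of 1599 exon regions called in a KO RNase R- list were called in both (46.9%), against a background of 32.2% of all such regions. In KO RNase R+ lists it was 163 of 405 (40.2%), against 22.7%. In WT RNase R- lists it was 3 of 46 (6.52%), against 11.4%, and these 3 regions, in Gm21738, Gm10719 and Sfi1, all had an expected level over 3 times the lowest. Of the KO RNase R- exon regions, 351 were also called in a KO RNase R+ list (22.0%), against 14.4% of all. Those 351 made up 86.7% of the 405 KO RNase R+ exon regions, against 64.5% of all. By any peak the KO RNase R+ lists called 340 and 228 exon regions, but with the summit in the exon 288 and 192. The other regions entered through the exon summit of another list, so part of the overlap between lists was fixed by the rule. The shares over all regions carry no such selection, so these shares are not alike. Counted in this way, most exon regions called after RNase R in KO were also called without it.

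Few exon regions were called in WT at all. Regions called in KO lists alone numbered 1623 of 1676 (96.8%), against a background of 89.0% of all regions, and regions called in WT lists alone numbered 23 (1.37%), against 5.98%. A total of 139 exon regions were called in all 4 KO lists (8.29%), against 2.96%. Of the 46 regions of the WT RNase R- lists, 21 were also called in a KO RNase R- list (45.7%), against 42.5%, a share near the background. Of the 10 regions of the WT RNase R+ lists, 8 were also called in a KO RNase R+ list (80.0%), against 45.2%. The Gm11168 and Gm10717 regions had no exon summit in a WT RNase R+ list. They entered through summits of the KO RNase R+ lists, so their overlap was fixed by the rule. The background share has no such selection, so no conclusion is drawn from this comparison.

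Of the 10 exon regions of highest mean fold in KO RNase R-, 8 are described here. Fhl2, which codes for a LIM-domain protein, had a fold enrichment of 99.3 and 84.9 without RNase R, then 59.0 and 73.0 after it. This region lay at a 5′ UTR exon inside the gene and was called in no WT list. The exon is annotated as the first of a transcript, so the region lay near an annotated transcript start, though 33272 bp from the nearest gene end.

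The other regions described were also called in the 4 KO lists. Prpf38b, of a pre-mRNA splicing factor, had a fold of 43.2 and 58.5 without RNase R, then 46.3 and 47.0 after it, and 4.77 in WT RNase R- replicate 1. Ncl, of the nucleolar protein nucleolin, had 39.5 and 35.9 without RNase R, then 38.5 and 25.4 after it. Pnn, of the splicing-associated protein pinin, had 38.4 and 27.8, and 35.5 and 21.1 with RNase R. Srrm2, of a scaffold protein of nuclear speckles, had 34.7 and 28.5, and 25.5 and 16.9 with RNase R. In Prpf38b, Ncl and Pnn the KO libraries with and without RNase R overlapped, and in Srrm2 they did not. Cstf2t, of a cleavage stimulation factor subunit, had 28.0 and 43.0 without RNase R, then 25.4 and 28.0 after it. Hsp90ab1, of a cytosolic HSP90 chaperone, had 41.2 and 31.0 without RNase R, then 23.7 and 25.1 after it.

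In Hnrnpdl both RNase R+ values lay below both RNase R- values. Hnrnpdl, of a heterogeneous nuclear ribonucleoprotein, had 40.7 and 47.0 without RNase R, then 28.6 and 11.2 after it. Of the 1676 exon regions, 139 were called in all 4 KO lists, as were 1486 regions of any kind. Among these 139 the median of the log2 ratio of RNase R+ to RNase R- fold was -0.50, with quartiles of -0.75 and -0.25, and it was below 0 in 122 (87.8%). Among the 1486 the median was -0.24, and it was below 0 in 1036 (69.7%). In 79 of the 139 exon regions both RNase R+ values lay below both RNase R- values, and in 5 both lay above (56.8% and 3.60%). Over the 1486 regions of any kind these shares were 38.7% and 10.8%. The regions had to be called in all 4 lists to have a ratio, so these values describe regions that RNase R left callable.

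Chosen after their values were seen, low ratios were those of Rps2, of a protein of the small ribosomal subunit (-1.71), Ypel4 (-1.67) and Prrx1, of a homeobox factor of mesenchyme (-1.52). The highest was that of Xdh, of xanthine dehydrogenase, at 1.26, in an exon annotated only in a retained-intron transcript, with folds of 6.17 and 3.92 without RNase R, then 10.7 and 12.9 after it. Gabra2, of a GABA-A receptor subunit, had 0.84, at a 3′ UTR exon, and Eny2 had 0.78.

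**Figure D3:**
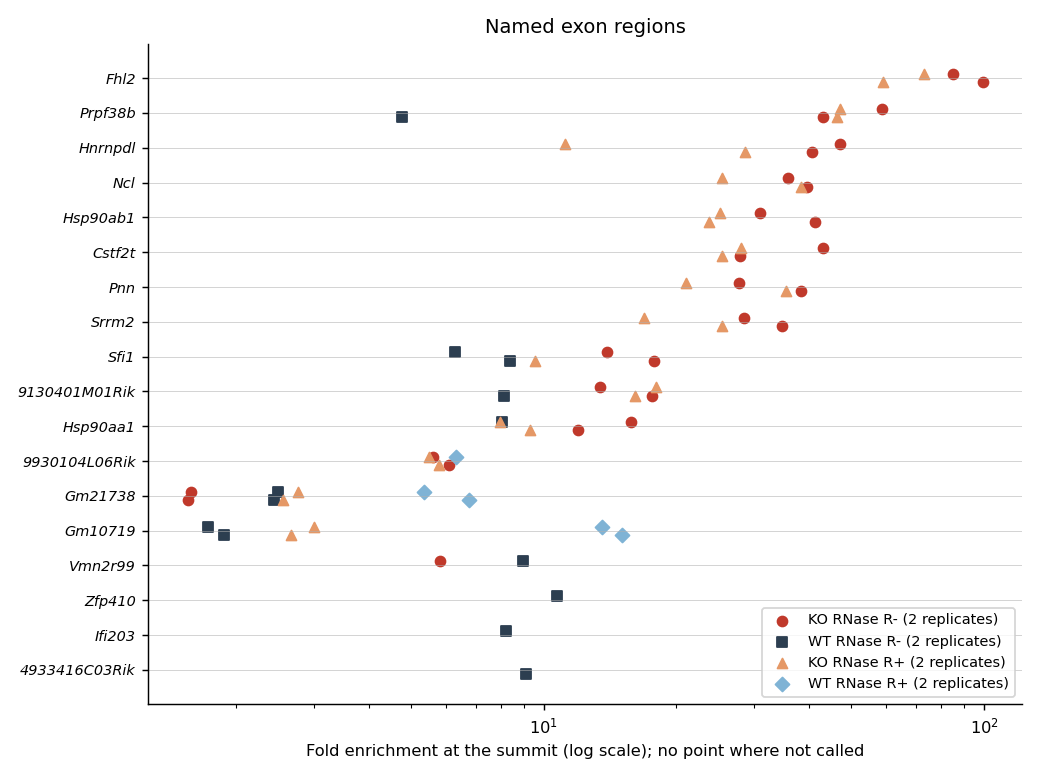
Fold enrichment (x axis, log scale) of named exon regions (y axis, by gene, ordered by the mean in KO RNase R-) in each library that called them. Circles and triangles are KO libraries without and with RNase R, squares and diamonds WT libraries, and no point is drawn where a region was not called. The KO points of Fhl2 lie between 59.0 and 99.3, the Hnrnpdl triangles lie left of its circles, and the WT points are few.

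Exon regions of WT lists lay largely in repeats. Of the 53 regions called in a WT list, 32 (60.4%) had at least 50% of the 300 bp around the summit masked as repeats in the reference, against 267 of 1623 (16.5%) of the regions called in KO lists alone. Of the 10 regions of the WT RNase R+ lists, 8 were masked to this degree and 7 had an expected level over 3 times the lowest of the list. A group of 5 of them lay on chromosome 9 between positions 3004022 and 3030898, in Gm11168, Gm10719 and Gm10717 (3 regions), and 1 in Gm21738 on chromosome 14. At these 6 the expected level was 862 to 11152 times the lowest of the list, and all 6 are annotated as coding. Gm21738 was called in all 8 lists, with folds of 1.56 and 1.58 in KO RNase R-, 2.45 and 2.49 in WT RNase R-, 2.55 and 2.76 in KO RNase R+ and 6.75 and 5.34 in WT RNase R+. Gm10719 was called in 6 lists, with 1.88 and 1.73 in WT RNase R-, 2.67 and 3.00 in KO RNase R+ and 15.1 and 13.6 in WT RNase R+. The 3 Gm10717 regions had the same WT RNase R+ values, 14.9 and 13.0, because 1 peak in each of these lists spans them.

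The other WT RNase R+ regions each lay in 1 of the 2 lists. Dnm2, of the membrane-scission protein dynamin 2, had a fold of 7.70 in replicate 2 and was called in no other list. Cyp11a1, of the enzyme of the first step of steroid synthesis, had 6.26 in replicate 1, 6.08 in WT RNase R- replicate 1 and 5.54 in KO RNase R+ replicate 1. Sbk3 had 6.32 in replicate 1 and 9.49 in KO RNase R- replicate 2. The gene 9930104L06Rik had 6.30 in replicate 2, between 5.50 and 6.10 in the 4 KO lists, and an expected level up to 8.28 times the lowest.

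In WT RNase R- lists the highest folds at exon regions were low beside those of KO. They were 10.7 in Zfp410, 9.09 in 4933416C03Rik, 8.98 in Vmn2r99, of a vomeronasal receptor, 8.39 in Sfi1, of a centrin-binding protein, and 8.19 in the interferon-inducible gene Ifi203. Of these 5, only Sfi1 was called in both WT replicates, with 6.30 in the other, in a region with an expected level up to 11.9 times the lowest. Vmn2r99 was also called in KO RNase R- replicate 2, at 5.80, and Sfi1 in both KO RNase R- lists, at 17.8 and 13.9. Only 1 of the 5 lists that called the Sfi1 region had its summit in the exon, so most of its folds belong to peaks with their summit elsewhere. Hsp90aa1, of the inducible cytosolic HSP90 chaperone and a paralog of Hsp90ab1, was called at 8.06 in WT RNase R- replicate 2 and in all 4 KO lists, at 11.9 and 15.8 without RNase R, then 9.30 and 7.96 after it. A region in 9130401M01Rik was called at 8.11 in WT RNase R- replicate 1 and at 13.4, 17.6, 16.1 and 17.99 in the KO lists.

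Exon peaks differed from intron peaks in base composition. The median GC content of the 300 bp around the summit was 54.0% and 54.0% in the exon peaks of KO RNase R-, against 43.7% and 43.7% in intron peaks. With RNase R it was 54.7% and 54.0% against 46.7% and 45.3%. For WT RNase R- the medians were 45.3% and 48.2% against 43.0% and 44.3%. All exon positions had a median of 46% and all intron positions 42.3%. Over the 6 libraries with at least 10 exon peaks, exon peaks were 7.25 points richer in GC, higher in 6 of 6, with an exact sign-flip permutation p of 0.03125, the smallest possible, and 0.139 after adjustment. The exon peaks of every KO list thus lay above all exon positions in GC content, and the WT RNase R- lists lay on both sides of them.

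The sense strand of KO exon peaks was rich in G and in purines. The GC skew was taken over the 300 bp around the summit. The GC skew was positive in 77.9% (95% Wilson interval 75.2 to 80.3) and 76.1% (73.6 to 78.5) of the exon peaks of KO RNase R-, and in 82.2% (77.4 to 86.2) and 80.1% (74.0 to 85.1) of those of KO RNase R+. It was positive in 53.7% of all exon positions and in 53.0% to 57.1% of the intron peaks of the KO lists. The WT RNase R- lists had a positive skew in 8 of 31 (25.8%) and 9 of 16 (56.2%) exon peaks. The medians of the skew in exon peaks were 0.17 and 0.16 in KO RNase R-, 0.22 and 0.24 in KO RNase R+, -0.16 and 0.04 in WT RNase R- and -0.27 and 0.05 in WT RNase R+. KO exceeded WT by 0.28 over both treatments, with an exact permutation p of 0.0556 within treatments and 0.139 after adjustment. With the limit set 2000 bp from gene ends this difference was 0.06, with an exact permutation p of 0.778. Exon peaks exceeded intron peaks in skew in all 4 KO lists, and over the 6 libraries by 0.06, with an exact sign-flip permutation p of 0.188.

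In the KO lists, purine runs were denser in exon peaks than at exon positions at large. Runs of 4 or more purines covered a median of 32.7% and 32.0% of the 150 bp around exon summits in KO RNase R- and 36% and 35.7% in KO RNase R+, against 20% at all exon positions. In intron peaks of the KO lists the medians were 16% to 23.3%. In exon peaks of WT RNase R- they were 11.3% and 16.3%, below all exon positions, so the runs in the printed 4933416C03Rik and Hsp90aa1 windows are not typical of WT exon peaks. The median purine content of the 300 bp was 58.0% and 57.7% in KO RNase R- and 60.0% and 61.2% in KO RNase R+, against 49.3% at all exon positions. S9.6 peaks carry no strand, and the sense strand is that of the annotated gene.

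The median repeat-masked share was high in intron peaks and low in KO exon peaks. A median of 9.67% to 13.7% of the 300 bp was masked in exon peaks of the KO lists, near the 8.33% of all exon positions, against 64.3% to 71.7% in their intron peaks. The exon peaks of the WT RNase R- lists had a median of 72.7% and 75.7%, above the 68.3% and 67.7% of their intron peaks. Exon peaks were thus less masked than intron peaks in the 4 KO lists and more masked in both WT RNase R- lists. The difference of -34.4 points over the 6 libraries had an exact sign-flip permutation p of 0.125. The KO exon peaks and the WT ones differed in the median masked share by -47.3 points over both treatments, with an exact permutation p of 0.167 within treatments, WT RNase R+ replicate 2 having a median of 0 over its 3 peaks. The difference was -25.3 points without WT RNase R+ replicate 1 and -69.3 points without WT RNase R+ replicate 2.

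**Figure D4:**
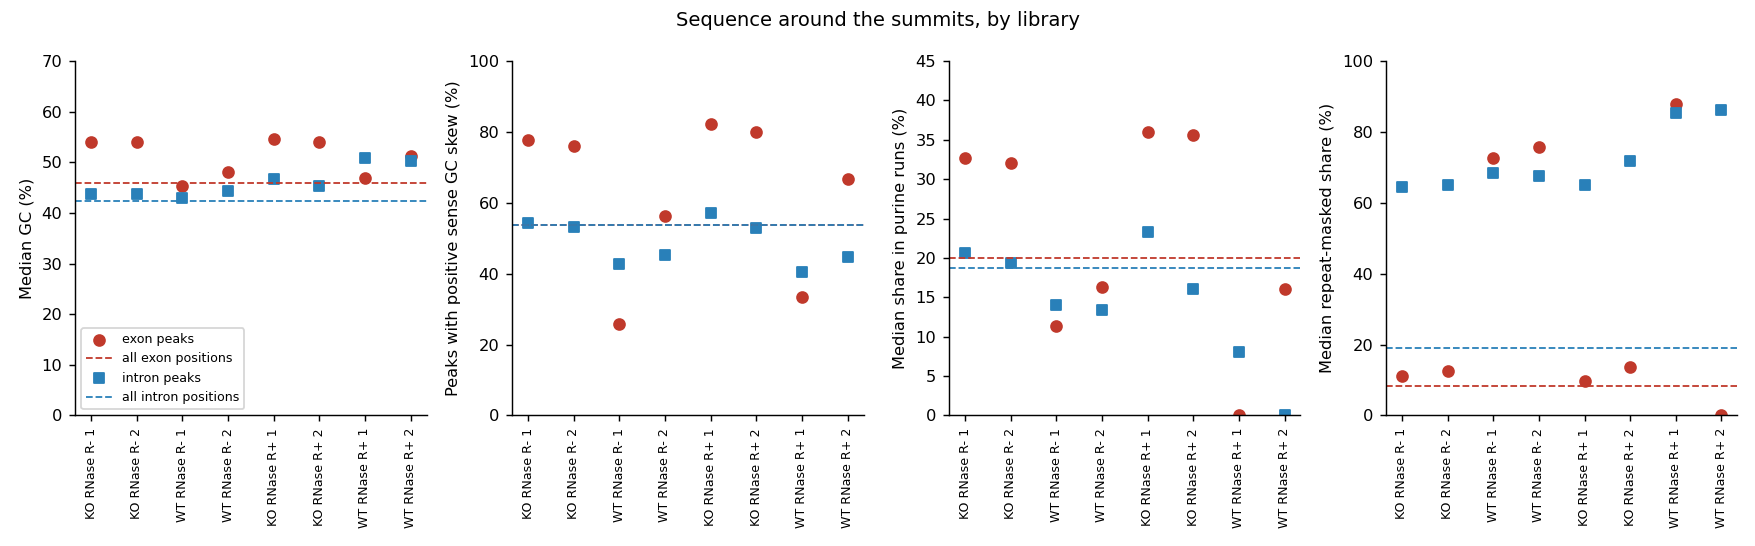
Median GC content, share of peaks with a positive GC skew on the sense strand, median share of 150 bp in purine runs and median repeat-masked share (y axes, percent) of exon peaks (circles) and intron peaks (squares) in each library (x axis). Dashed lines give all exon and all intron positions. In the 4 KO libraries exon peaks lie above intron peaks in the first 3 panels and below them in the last, and WT RNase R+ rests on 3 exon peaks a library.

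Exon and intron peaks had similar median fold enrichment. The median fold was 7.05 and 7.17 in exon peaks and 6.93 and 6.79 in intron peaks of KO RNase R-, 7.72 and 7.41 against 6.76 and 6.88 in KO RNase R+, and 6.68 and 6.72 against 6.56 and 7.02 in WT RNase R-. The log2 difference over the 6 libraries was 0.06, with an exact sign-flip permutation p of 0.156. With each list cut into 5 bins of equal size by fold, the exon share of the highest bin was 5.11% (4.55 to 5.74) and 5.37% (4.85 to 5.95) in KO RNase R-, and 8.53% (7.11 to 10.2) and 5.68% (4.50 to 7.15) in KO RNase R+. In the other bins it ranged from 3.12% to 3.83% without RNase R and from 2.29% to 4.47% with it. In the bins of the WT RNase R- lists it ranged from 0.472% to 0.946%, on 2 to 7 exon peaks a bin, with 0.524% and 0.473% in the highest.

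More exon peaks of the KO lists lay in coding sequence than exon positions at large. The exon had a median length of 1530 and 1376 bp in KO RNase R- and 1294 and 1127 bp in KO RNase R+, against 1553 bp over all exon positions. Coding sequence held 49.9% and 50.3% of the exon peaks of KO RNase R- and 61.9% and 62.9% of those of KO RNase R+, against 43.5% of exon positions. The 3′ UTR held 19.1% and 18.6%, and 15.1% and 13.2% with RNase R, against 26.0%. Exons annotated only in retained-intron transcripts held 20.3% and 20.5%, and 13.1% and 13.7% with RNase R, against 21.3%. In WT lists without RNase R, 9 of 31 and 7 of 16 exon peaks were coding. A positive median skew was present in every annotation class of the KO lists, from 0.12 in 5′ UTRs to 0.33 in other noncoding transcripts, the latter over 10 peaks. In 56.0% to 61.3% of the exon peaks of the KO lists the whole peak was exonic.

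Exon peaks were sparser far from the gene ends. In KO RNase R- there were 23.8 and 27.5 peaks per Mb of exon in the first 250 bp past the limit of 1000 bp, just inside it, and 28.9 and 34.7 at 751 to 1000 bp, just outside it. Nearest the ends, at 0 to 250 bp, there were 16.2 and 19.8, so the density did not rise steadily toward the ends. At 5001 to 10000 bp there were 14.9 and 17.1, and beyond 10000 bp 7.04 and 8.93. In KO RNase R+ the values were 8.35 and 4.66 just inside, 8.84 and 7.76 just outside and 1.29 and 1.25 beyond 10000 bp. The genes with exon peaks were shorter than genes weighted by exon length, with a median of 21530 and 21023 bp in KO RNase R- against 45428 bp over all exon positions.

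**Figure D5:**
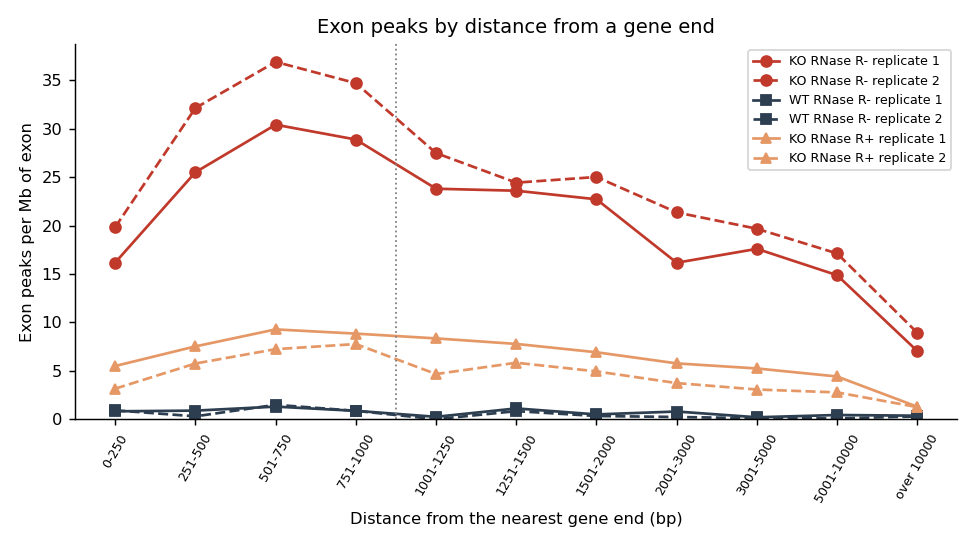
Exon peaks per Mb of exon (y axis) by distance of the summit from the nearest end of a protein-coding gene (x axis, bp), for the 4 KO libraries and the WT RNase R- libraries. The dotted line marks 1000 bp, and only peaks to its right count as exon peaks here. KO RNase R- falls from 23.8 and 27.5 peaks per Mb just inside the line to 7.04 and 8.93 beyond 10000 bp, and WT stays under 1.5 throughout.

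The exon regions were spread over many genes, with a few that held several. Of 19781 genes with exon sequence inside the limits, 1418 (7.17%) had a region, and 1210 of these had 1. Ahnak2 and Myh9 had 7 regions each, and Amotl2 and Plec 5 each. At the mean density of 24.2 regions per Mb of exon these genes would hold between 0.12 and 0.40. Myh9 codes for the heavy chain of nonmuscle myosin IIA, and 4 of its 7 regions were called in both KO RNase R- lists, 1 of them in both KO RNase R+ lists too (12.8 and 11.6 without RNase R, 5.66 and 8.17 with it). In Amotl2, of an angiomotin family protein of cell junctions, all 5 regions were called in both KO RNase R- lists, with folds of up to 23.9 and 20.04. Plec codes for the cytolinker plectin, and its strongest region had 23.5 and 13.9 without RNase R, then 16.6 and 6.94 after it. In Ahnak2, 6 of the 7 regions were called in both KO RNase R- lists, with folds of 3.82 to 8.09, none with RNase R, and expected levels of 2.82 to 7.64 times the lowest.

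Lists of genes were then read against all genes by counts alone. The lists and their members were chosen with earlier results of these data known, and the first list holds Myh9 and Plec, described above. The shares of the lists are thus descriptions, and no conclusion is drawn from their distance to the share over all genes. Among 38 giant cytoskeletal and scaffold genes, 13 had a region (34.2%), against 7.17% of all genes, and they held 49.3 regions per Mb of exon against 24.2 over all. Besides Myh9 and Plec, Dst, of the cytolinker dystonin, had 10.9 and 11.6 without RNase R, then 9.88 and 11.1 after it. Of these 37 regions 9 were called in a KO RNase R+ list and 0 in WT, against 405 and 53 of the 1676 regions over all genes. The share with RNase R was thus near that over all genes, and 37 regions are too few to read the 0 in WT. Among 38 extracellular matrix genes, much used by fibroblasts, 9 had a region (23.7%), at 60.2 regions per Mb. Of these 17 regions 11 were called in both KO RNase R- lists, against 750 of 1676 over all genes. Thbs1, of thrombospondin 1, had 31.5 and 26.9 without RNase R, then 17.7 and 8.72 after it. Col1a1, of a type I collagen chain, had 11.1 and 10.8 without RNase R and 8.56 in 1 of the 2 RNase R+ lists.

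Factors known to resolve R-loops or export RNA had 8 regions in 8 of 29 genes (27.6%), at 43.3 per Mb. Of these 8 regions, 0 were called in a KO RNase R+ list, 1 in a WT list and 1 in both KO RNase R- lists. Over all 1676 regions these counts were 405, 53 and 750, and 8 regions are too few for a comparison. The region called in both KO RNase R- lists was that of the splicing factor gene Srsf1 (6.59 and 7.76). The region of Ddx21, of an RNA helicase, had 9.59 in KO RNase R- replicate 2 alone, and that of Atxn2 had 7.60 in replicate 1 alone. Among 24 hosts of well-known circular RNAs, 4 had a region (16.7%), at 20.7 per Mb, near the 24.2 over all genes. Zkscan1 had 8.08 and 9.18 without RNase R and 7.28 in 1 list with it, Hipk2 had 6.45 in 1 list and 6.65 in 1 list, and Asxl1 had 7.29 and 9.28 and was not called with RNase R.

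Zinc finger genes named Zfp had 33 regions in 27 of 386 genes (6.99%), at 22.7 per Mb, near the values over all genes. Zfp651 had 13.6 and 12.2 without RNase R, then 4.74 and 7.23 after it. Solute carrier genes had 22 regions in 21 of 369 genes (5.69%), at 16.7 per Mb, Slc16a11 with 11.8 and 20.6 without RNase R, then 5.22 and 6.03 after it. Olfactory and vomeronasal receptor genes, which serve smell, had 33 regions in 33 of 1299 genes (2.54%), at 9.10 per Mb, with a median skew of -0.06 against 0.16 over all regions. Keratin and keratin-associated genes (55) and clustered protocadherin genes (56) had 0 regions, in 62.8 and 140 kb of exon. At the mean density of 24.2 regions per Mb so little exon would hold few regions, so no absence is read from these counts.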

How the data were processed

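S9.6 DRIP-seq peak lists of 8 immunoprecipitates were analysed. The authors aligned paired reads to the mouse genome (mm10, which is GRCm38) with Bowtie2, dropped duplicates and reads that did not map uniquely with SAMtools 1.1, and ran MACS2 on every replicate by itself. The control given to the caller is not given in the sources used here. In the deposited lists, fold enrichment is a ratio of summit height to the expected level, and p and q are −log10 values (lowest −log10 q, 3.00). The deposited score was not used. The lists hold no reads, the study's own read totals entered no calculation, and a fold depends on the background of its list.

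Exon, intron and gene ends came from GENCODE M21 (GRCm38), and sequence and repeat masking from the GRCm38 reference. Summit heights and expected levels were recovered from fold and p of each peak (77297 of 77297 whole, within a relative 0.0001). Peaks that overlapped or touched were merged, and a region counted as called in a list where any peak overlapped it by 1 bp. Selection, merging and height recovery were tested against bedtools 2.31.1 and simulated data (2689 of 2689 exon peaks, 245 of 245 merged regions, 3000 of 3000 heights). Positions at large were every 2000th exon base and every 20000th intron base.

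Exact permutation tests were run in Python 3.11.15 (numpy 2.4.6, scipy 1.17.1), on log2(peaks + 0.5) or on shares, within strata for combined effects, with Benjamini-Hochberg adjustment over 15 tests, 4 of them added after the data were seen (those on GC skew and repeat masking). Comparisons of 2 libraries with 2 have 6 arrangements and stratified ones 36. Named regions were the 10 called in the most lists, the 10 of highest mean fold among those called in both KO RNase R- lists, every one in a WT RNase R+ list, the 5 highest in WT RNase R-, the 4 genes with 5 or more regions (the fifth place was tied), and up to 3 members of each gene list. Some regions that this rule names, and some of their sequences, are not reported here. Members and lists were chosen with earlier results of these data known. WT RNase R- replicate 1 carries peak names made for replicate 2, with values of its own. Replicate numbers come from the titles: the replicate differences of log2 fold correlated at 0.04, -0.02 and 0.01 between groups of the same number, and at -0.33 between the WT groups (65 regions), so the numbers were not taken to pair the samples. The alternatives tried are listed with their effect in the closing section.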

Additional observations from a re-analysis of the deposited data

Results flagged for a closer look

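RNase R shifted the median fold enrichment of exon peaks one way in KO and the other way in WT. In KO the medians were 7.05 and 7.17 in RNase R- and 7.72 and 7.41 in RNase R+, an effect of 0.451 on their mean. In WT the medians were 6.68 and 6.72 in RNase R- and 6.32 and 6.30 in RNase R+, an effect of -0.385. The effects differed by 0.836, and this difference was not tested. The WT RNase R+ medians rest on 3 exon peaks each. Of 12 measures examined in this way, 1 moved in opposite directions in every library.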

How the results depend on the processing

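With 2 libraries a group, no comparison of genotypes or treatments can pass 0.05, so an unchanged side of that threshold says nothing about stability. The genotype effects on the number of exon peaks, the exon share and the exon to intron ratio kept their direction under a fold of at least 5, 1 p threshold for all lists, coding sequence alone, 2000 bp from gene ends, any overlap, without raised expected levels, the same number of peaks and without each replicate, and the number also with a pseudocount of 1. Over both treatments, the share difference ranged from 2.62 to 3.27 points without 1 replicate and was 1.79 with coding sequence alone.

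The GC difference between exon and intron peaks had a sign-flip permutation p of 0.125 with coding sequence alone (11.9 points, 4 libraries with enough peaks), 0.0859 with any overlap (4.65 points) and 0.0625, the smallest then possible, without any 1 of the 6 replicates (6.63 to 8.23 points). The fold difference reached a permutation p of 0.03125 at 2000 bp (log2 0.06) and 0.0234 with any overlap (0.0923), and was -0.00899 with the same number of peaks. The repeat-masked difference reached 0.03125 at 2000 bp (-39.9 points) and without raised expected levels (-41.3), and 0.00781 with any overlap (-40.8). The RNase R effect on the exon share was -0.0998 points at 2000 bp and ranged from -0.0686 to 0.583 without 1 replicate. The RNase R effect in KO minus that in WT was 1.205 at 2000 bp, -0.19 with any overlap and -0.11 with the same number of peaks, and ranged from 0.0788 to 1.01 without 1 replicate. The genotype difference in skew was 0.0602 at 2000 bp (permutation p 0.778) and ranged from 0.202 to 0.364 without 1 replicate, and that in the masked share ranged from -69.3 to -25.3 points. The causes of these changes were not tested.

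The share of exon peaks found again in KO RNase R- (60.8%) was 66.2% in coding sequence, 57.6% at 2000 bp and 57.7% without raised expected levels, and in KO RNase R+ (58.4%) 53.8% at 2000 bp. In WT RNase R- (10.6%) it was 2.56% at a fold of at least 5, 25.0% of 16 in coding sequence, 0 of 34 at 2000 bp and 0 of 42 without raised expected levels, and in WT RNase R+ (2 of 6) 0 of 2 at 2000 bp and 0 of 4 without raised expected levels.

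Fitting the replicate block leaves the effects at their values by construction. The genotype effects over both treatments (5.83 for the number, 2.95 points for the share, 1.91 for the ratio) and the RNase R effect on the number (-2.43) had a sign-flip permutation p of 0.125, the smallest possible over 4 pairs, and the RNase R effect on the share (0.257) had 0.375. Within a treatment (5.55, 6.10, 2.93 and 2.97) it was 0.5, the smallest possible over 2 pairs. Crossing the WT numbers gave 0.125 for the RNase R effect on the number and 0.375 for that on the share. Among named regions, the Ahnak2, Gm21738, Gm11168, Gm10719 and Gm10717 regions depended on peaks with raised expected levels: without those, 4 of the 7 Ahnak2 regions and all of the others were called in 0 lists, as was 1 of the 7 Myh9 regions. Counting only peaks with their summit in the exon, the number of lists fell from 5 to 2 for Hsp90aa1 and from 5 to 1 for Sfi1, from 4 to 1 for the strongest Myh9 region, from 3 to 1 for the strongest Amotl2 region and from 4 to 2 for the Slc16a11 and the stronger Thbs1 region.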
